A study of Homo sapiens with 6 samples.

Results

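GTF2H2 and 9 further genes of the segmental duplication on chromosome 5, band 5q13, were followed across the HAP1 and HELLS KO libraries. The 10 genes were GTF2H2, GTF2H2B, GTF2H2C, SMN1, SMN2, NAIP, SERF1A, SERF1B, OCLN and BDP1, and they were 10 of the 60483 gene rows in the count table. They were chosen as a list of genes in or beside the duplication, found by Ensembl gene ID with the version removed, because GTF2H2 was low in HELLS KO in these same libraries. The difference between HELLS KO and HAP1 at these 10 genes is therefore given as a description and carries no test. The comparison asked whether GTF2H2 was low alone or together with the genes duplicated beside it.

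HAP1 is a near-haploid human cell line derived from a chronic myelogenous leukemia. HELLS is a chromatin remodeler of the SNF2 family that DNA methylation depends on at many repeats. By ELISA, however, the study found no effect of HELLS loss on global CpG methylation in HAP1. RNA-seq covered 3 libraries of parental HAP1 (C631), of wild-type genotype, and 3 libraries of HAP1 HELLS KO cells, which carry an inserted base in exon 3 of HELLS. All 6 came from cells under normal growth with no drug. The HELLS KO line is 1 clone, so a change that belongs to the clone and a change that belongs to the HELLS genotype cannot be told apart.

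The 5q13 duplication carries the same block of genes in several copies, some of them inverted, and people differ in how many copies they have. GTF2H2 encodes p44, a core subunit of TFIIH, the complex that opens DNA at RNA polymerase II promoters and during nucleotide excision repair. GTF2H2C is a near-identical coding copy, and GTF2H2B is annotated as a transcribed pseudogene. SMN1 and its copy SMN2 encode the survival motor neuron protein, which assembles the small nuclear ribonucleoproteins of the spliceosome, and loss of SMN1 causes spinal muscular atrophy. SERF1A and SERF1B encode a small protein that promotes amyloid aggregation, and NAIP encodes an inflammasome receptor for bacterial flagellin and secretion needles. OCLN, which encodes the tight junction protein occludin, and BDP1, which encodes a subunit of the RNA polymerase III factor TFIIIB, lie at the outer edges of the duplication.

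The near-identity of the GTF2H2 copies decides which reads could be counted, so their sequence is shown first. GTF2H2 lies on the minus strand at chr5:71035016-71067689 and GTF2H2C on the plus strand at chr5:69560191-69595221 (GRCh38, GENCODE release 44). Upstream of the start sites, 220 matching bases of GTF2H2 (chr5:71067707-71067926, minus strand) and of GTF2H2C (chr5:69559971-69560190, plus strand) were compared in the promoter sequences of RefSeq (GRCh38.p14). The stretch ends at the start site of GTF2H2C and short of that of GTF2H2. The stretches differed at 1 base, T57C, counted from 1 at the 5′ end with the base of GTF2H2 first and shown here in capitals.
GTF2H2: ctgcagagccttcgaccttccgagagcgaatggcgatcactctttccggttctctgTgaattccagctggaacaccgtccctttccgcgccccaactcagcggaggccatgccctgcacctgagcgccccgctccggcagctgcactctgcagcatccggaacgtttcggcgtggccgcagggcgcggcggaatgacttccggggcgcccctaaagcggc
GTF2H2C: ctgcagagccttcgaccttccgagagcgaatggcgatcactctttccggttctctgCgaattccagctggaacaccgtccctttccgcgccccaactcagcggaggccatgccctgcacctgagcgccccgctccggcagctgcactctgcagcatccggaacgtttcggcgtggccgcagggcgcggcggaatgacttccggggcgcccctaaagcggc

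The 300-base promoter window of GTF2H2 held 32 CG dinucleotides and that of GTF2H2C held 31. Of the 35116 windows in the same RefSeq table, 18.9% held at least as many as GTF2H2 and 20.7% at least as many as GTF2H2C. The dinucleotide searched was CG, which reads the same on both strands. RefSeq windows were matched for 6 of the 10 genes, and those of SERF1A and SERF1B differed at 0 bases.

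The coding sequences were as close. Over 1185 coding bases GTF2H2 differed from GTF2H2C at 4 positions, A397G, A453G, G706C and G912A, counted from 1 at the start codon with the base of GTF2H2 first (99.7% identity). GTF2H2 differed from GTF2H2B at 3 positions, A453G, T596C and G912A (99.7% identity). Coding bases 380 to 469 hold the closest pair of differences and lie within a single exon of each copy, at chr5:71055353-71055442 on the minus strand in GTF2H2, at chr5:69572460-69572549 on the plus strand in GTF2H2C and at chr5:70427600-70427689 on the plus strand in GTF2H2B (GRCh38). The capitals mark positions 397 and 453, the bases by which a read from this exon could be placed.
GTF2H2: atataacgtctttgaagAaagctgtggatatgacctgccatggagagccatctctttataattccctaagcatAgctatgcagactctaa
GTF2H2C: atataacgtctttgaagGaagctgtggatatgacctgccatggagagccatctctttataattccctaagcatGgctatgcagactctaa
GTF2H2B: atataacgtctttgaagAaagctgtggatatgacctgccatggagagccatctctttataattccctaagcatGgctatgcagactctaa

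Reads placed with a mapping quality below 20 were dropped by the authors, and a read that fits several copies equally well falls under that limit. The part of each gene that could collect reads was therefore approximated with 100-base exonic stretches, the length of a single read. The share that occurs once on the main chromosomes of GRCh38 was counted. Exon blocks shorter than 100 bases and stretches across a splice junction were left out, so reads from these parts are not covered. In GTF2H2 914 of 4913 stretches occurred once (18.6%), and in GTF2H2C 1451 of 6555 did (22.1%). In GTF2H2B only 7 of 219 did (3.20%), a small number of stretches for its 1432 exonic bases. SMN1 and SMN2 had 400 such stretches each, 19.6% of 2038 in SMN1 and 22.1% of 1809 in SMN2. The share was 9.10% in NAIP, 4.23% in SERF1A and 4.18% in SERF1B. It reached 52.8% in OCLN and 100% in BDP1. The 21 single-copy genes listed on both sides of the duplication stood between 99.1% and 100%.

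Among annotated transcripts, 55.0% of the 100-base stretches of GTF2H2 also occurred in a transcript of another gene. The most frequent were GTF2H2C (46.7%) and ENSG00000291220 (40.4%). For GTF2H2B the share was 99.8%, most often with ENSG00000291220 (89.9%). The share was 76.9% for SMN1 and 82.2% for SMN2, all of it shared between these copies. It was 93.8% for SERF1A and 96.0% for SERF1B. Read pairs and small differences further along a fragment can place some reads that these stretches cannot, so the shares describe the sequence and not the reads themselves. The counts of each copy rest on the small part of the gene that tells the copies apart.

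The libraries held between 13641237 and 24400187 counts, and replicate 3 of each genotype was the deepest. A total of 3 counts, used here as the lowest level told apart from 0, corresponded to 0.123 to 0.220 CPM, the usual unit of counts scaled to the size of the library. HELLS itself, the edited gene, was read at 1444, 1488 and 3671 counts in HAP1 libraries and at 1410, 1375 and 2802 in the edited ones. Its log2 fold change of -0.24 with a standard error (SE) of 0.18 did not pass the test, so its RNA level does not check the labels. Over all 17925 genes tested with edgeR's quasi-likelihood test, 269 were higher and 129 lower in HELLS KO, and 363 were higher and 267 lower once replicate number entered as a block. Of 9 haematopoietic markers of a blood-derived line, 7 were too low to be tested. PTPRC, SPI1, MPO and HBG1 had at most 3 counts in every library, and the summed level of the 9 markers was 21.1 to 40.2 CPM in HAP1 and 3.70 to 7.25 CPM in HELLS KO, mostly KIT, a receptor of blood progenitors (log2 fold change -2.90, SE 0.43, edgeR adjusted p = 0.015). KIT did not pass without HELLS KO replicate 1 (-2.65) or without HELLS KO replicate 2 (-2.76), nor with a minimum of 10 counts in every library (-2.89). CD33, the other haematopoietic marker tested, was at 0.12 (SE 0.64), so 1 of the 2 tested passed as lower, beside 0.72% of all tested genes. Of 5 epithelial markers 3 were tested and 2 passed as lower, beside 0.72% of all tested genes. These were EPCAM (-4.88, SE 0.39) and KRT8 (-2.61, SE 0.22), at an adjusted p of 0.0015 each (edgeR). CDH1 and KRT5 had at most 6 counts in any library. The fifth marker, KRT18, was abundant and level, at 49.7 ± 8.61 CPM in HAP1 and 43.6 ± 7.67 CPM in HELLS KO (SD, n = 3 each; -0.19, SE 0.19). The summed epithelial level was 101 to 145 CPM in HAP1 and 48.1 to 64.9 CPM in HELLS KO. Of 6 fibroblast and smooth muscle markers 2 were tested and 0 passed with edgeR, DESeq2 or limma, beside 2.22% of all tested genes with edgeR. An unadjusted p under 0.05 with edgeR was found for 0 of the 2, beside 6.59% of all tested genes. Both counts of 0 lie near these shares. DCN and LUM were at 0 counts throughout, and the sum was 39.9 to 83.6 CPM in HAP1 and 39.6 to 53.7 CPM in HELLS KO. The part of these differences in the results at 5q13 was not tested.

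GTF2H2 (ENSG00000145736) was low in every HELLS KO library. It had 147, 161 and 383 counts in HAP1 replicates 1 to 3 and 25, 46 and 88 counts in the HELLS KO replicates. Scaled by library size with edgeR's TMM factors, these were 10.3, 11.7 and 15.9 CPM in HAP1 and 1.71, 3.21 and 3.60 CPM in HELLS KO. The highest HELLS KO library lay below the lowest HAP1 library. The mean fell from 12.6 ± 2.92 CPM to 2.84 ± 0.998 CPM (SD, n = 3 each). The fitted log2 fold change was -2.14 with an SE of 0.33 and a 95% interval from -2.92 to -1.36, which is 4.41-fold lower. In bulk RNA a smaller number of cells that express a gene and less of its RNA in each cell cannot be told apart. Taken replicate by replicate, the log2 ratio of HELLS KO over HAP1 was -2.59, -1.86 and -2.14, the last from the batch that the labels give to replicate 3. These ratios are descriptions with no test.

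GTF2H2C, the coding copy with 4 coding differences, did not follow. Its counts were 320, 348 and 772 in HAP1 against 294, 373 and 798 in HELLS KO. In CPM these were 22.5, 25.3 and 32.1 in HAP1 and 20.2, 26.1 and 32.7 in HELLS KO. The libraries of the genotypes overlapped fully, and replicate 3 was the highest of each. Fitted over all libraries, its log2 fold change was -0.02 (SE 0.23) with a 95% interval from -0.55 to 0.52.

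GTF2H2B, the pseudogene copy, was low in both genotypes. Its counts were 8, 19 and 45 in HAP1 against 4, 0 and 11 in HELLS KO, or 0.561, 1.38 and 1.87 CPM against 0.274, 0 and 0.451 CPM. The HELLS KO libraries all lay below the HAP1 libraries. The gene did not pass edgeR's filter on low counts, so the main fit gave it no fold change, and the ratio of the mean CPM values was 0.190. Of 16 alternative fits 7 included it and it passed in 0 of them. Its log2 fold changes there ran from -3.16 (without HELLS KO replicate 3) to -1.78 (without HELLS KO replicate 2), with -2.33 in DESeq2. With 7 exonic stretches found to occur once, and short exons left out of that number, its counts and those of GTF2H2 and GTF2H2C cannot be fully separated.

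Adding the copies removes the question of which of the added copies a read was given to. Reads dropped at alignment stay dropped, and ENSG00000291220 is not part of the sum. GTF2H2, GTF2H2B and GTF2H2C together gave 475, 528 and 1200 counts in HAP1 against 323, 419 and 897 in HELLS KO. These sums were 33.3, 38.3 and 49.9 CPM in HAP1 and 22.1, 29.3 and 36.7 CPM in HELLS KO. HELLS KO replicate 3 lay above HAP1 replicate 1, so the genotypes overlapped, while HELLS KO was the lower in 3 of 3 same-numbered pairs. The log2 fold change of the sum was -0.46 (SE 0.24) with a 95% interval from -1.01 to 0.09, a 1.38-fold lower level. With the replicate block it was -0.47 (SE 0.11, interval -0.72 to -0.22), and since the sum holds GTF2H2 both values are descriptions with no test. The share of GTF2H2 in the counts of GTF2H2 and GTF2H2C, which library size does not touch, was 31.5%, 31.6% and 33.2% in HAP1. In HELLS KO it was 7.84% (95% Wilson interval 5.36% to 11.3%), 10.98% (8.33% to 14.3%) and 9.93% (8.13% to 12.1%). These intervals cover counting error only and describe single libraries.

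SMN1 (ENSG00000172062, chr5:70925030-70953942, plus strand, GRCh38) was lower still. HAP1 libraries gave 201, 219 and 412 counts against 25, 27 and 72 in HELLS KO. In CPM these were 14.1, 15.9 and 17.1 in HAP1 and 1.71, 1.89 and 2.95 in HELLS KO. No HELLS KO library came near the HAP1 range. The log2 fold change was -2.82 (SE 0.27) with a 95% interval from -3.46 to -2.19, which is 7.08-fold lower. The log2 ratios of replicates 1 to 3 were -3.04, -3.07 and -2.54.

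SMN2, at chr5:70049638-70078522 on the plus strand, stayed level. HAP1 libraries gave 120, 126 and 288 counts against 153, 155 and 224 in HELLS KO. In CPM these were 8.42, 9.15 and 12.0 in HAP1 and 10.5, 10.8 and 9.18 in HELLS KO. The libraries overlapped, with HELLS KO the higher at replicates 1 and 2 and the lower at replicate 3 (log2 ratios 0.32, 0.24 and -0.38). HELLS KO over HAP1 gave a log2 fold change of 0.04 (SE 0.21) with a 95% interval from -0.45 to 0.53.

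The SMN copies together fell less than SMN1 alone. Their sum was 321, 345 and 700 counts in HAP1 against 178, 182 and 296 in HELLS KO. The mean went from 25.6 ± 3.32 CPM to 12.3 ± 0.321 CPM (SD, n = 3 each), and the genotypes did not overlap. The log2 fold change was -1.05 (SE 0.17) with a 95% interval from -1.44 to -0.66, which is 2.07-fold lower. The SMN1 share of the pair was 62.6%, 63.5% and 58.9% in HAP1. In HELLS KO it was 14.0% (Wilson interval 9.70% to 19.9%), 14.8% (10.4% to 20.7%) and 24.3% (19.8% to 29.5%). Replicate 3 of HELLS KO had the highest SMN1 share of its genotype and still lay below all HAP1 libraries.

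**Figure D1:**
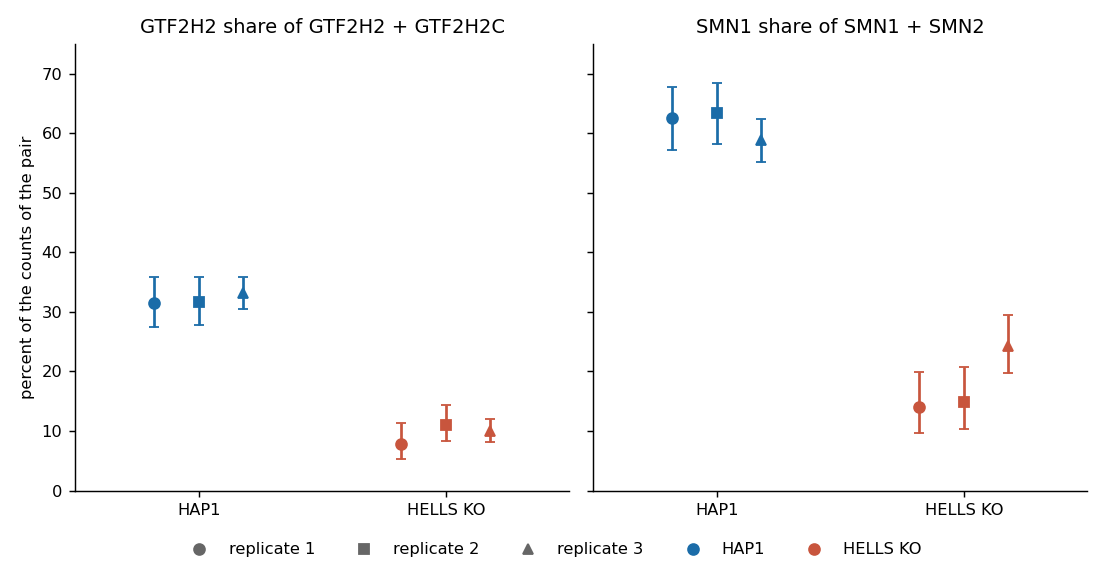
Share of GTF2H2 in the counts of GTF2H2 and GTF2H2C (left) and of SMN1 in the counts of SMN1 and SMN2 (right), in percent, 1 marker per library with its 95% Wilson interval. GTF2H2 goes from 31.5% to 33.2% in HAP1 to 7.84% to 10.98% in HELLS KO, and SMN1 from 58.9% to 63.5% to 14.0% to 24.3%.

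The other duplicated genes were at the limit of detection. NAIP had 1 count in HAP1 replicate 1 and 0 in the other libraries. SERF1A was read at 1, 1 and 0 counts in HAP1 against 0, 0 and 2 in HELLS KO. SERF1B had 2 counts in HAP1 replicate 1 and 0 elsewhere. All stand at or under 3 counts in every library, so no fold change is given and a difference was not detectable. Few of their exonic stretches occur once (9.10% in NAIP, 4.23% in SERF1A and 4.18% in SERF1B). The part of dropped reads in these low counts was not tested. The SERF1A and SERF1B sum was 3, 1 and 0 counts in HAP1 and 0, 0 and 2 counts in HELLS KO, with the same limit.

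OCLN gave 66, 64 and 162 counts in HAP1 against 66, 91 and 188 in HELLS KO. In CPM these were 4.63, 4.65 and 6.74 in HAP1 and 4.53, 6.36 and 7.70 in HELLS KO. The libraries overlapped, and the log2 fold change was 0.21 (SE 0.29) with a 95% interval from -0.46 to 0.89.

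Among the 6 genes that were fitted, BDP1 varied most between replicates. Its counts were 575, 364 and 2160 in HAP1 against 213, 788 and 2424 in HELLS KO. In CPM these were 40.3, 26.4 and 89.8 in HAP1 and 14.6, 55.1 and 99.3 in HELLS KO. The highest library was 3.40 times the lowest in HAP1 and 6.80 times the lowest in HELLS KO, and the log2 ratios of replicates 1 to 3 were -1.47, 1.06 and 0.14. The log2 fold change was 0.11 (SE 0.68), and its 95% interval from -1.48 to 1.69 allows a change of either sign. Leaving out single libraries moved it as far as -0.60 (without HELLS KO replicate 3) and 0.76 (without HAP1 replicate 3). Genes of at least 8000 bases (2922 genes) also differed between libraries, with median log2 deviations from the genotype mean of -0.05, -0.13 and 0.19 in HAP1 and -0.22, 0.05 and 0.20 in HELLS KO. BDP1 deviated by -0.18, -0.77 and 0.95 in HAP1 and by -1.51, 0.34 and 1.17 in HELLS KO, so its libraries followed the order of the long genes in HAP1 (replicate 2 lowest) and in HELLS KO (replicate 1 lowest). The part of gene length in this spread was not tested.

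**Figure D2:**
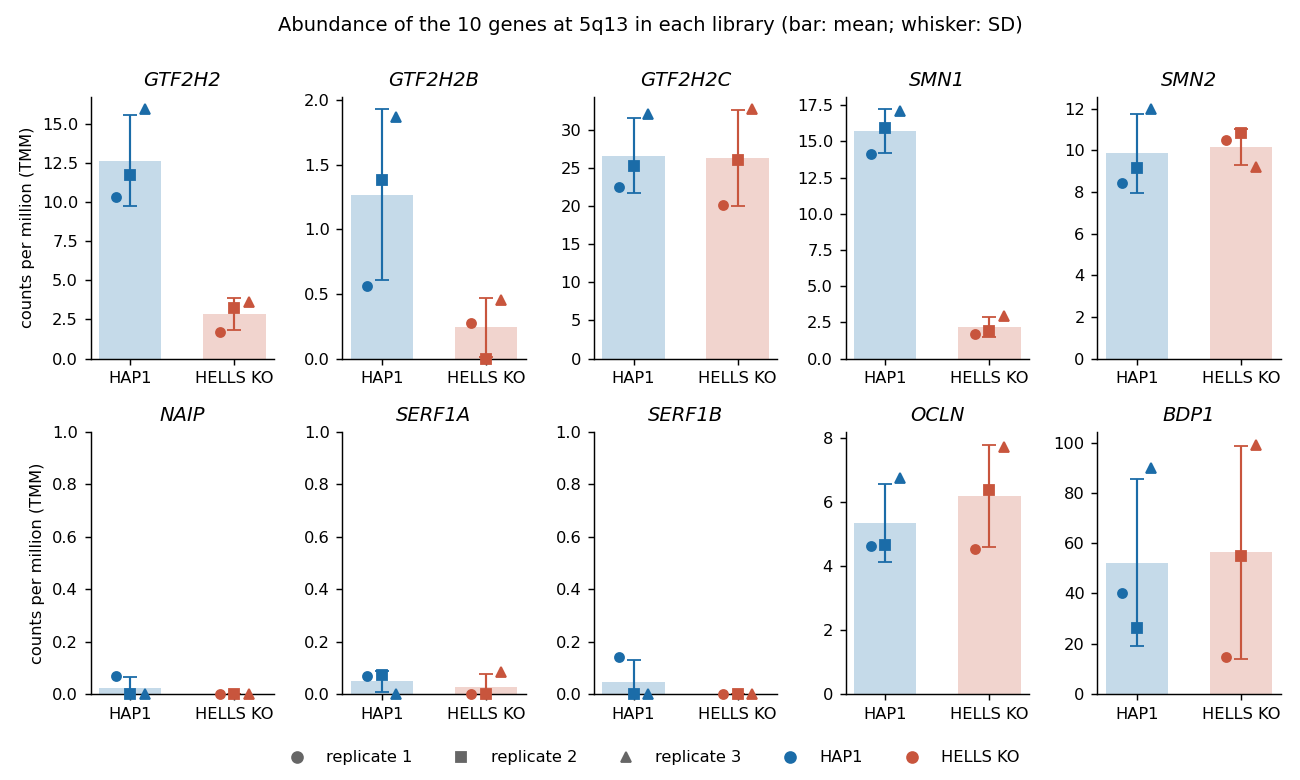
TMM-scaled CPM of the 10 genes in the 3 HAP1 and 3 HELLS KO libraries (markers), with the mean (bar) and SD (whisker) of each genotype and a separate vertical scale per gene that starts at 0. The markers separate for GTF2H2 (10.3 to 15.9 against 1.71 to 3.60 CPM), SMN1 (14.1 to 17.1 against 1.71 to 2.95 CPM) and, at much lower counts, GTF2H2B.

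Across the 10 genes, 6 passed the filter on low counts and 4 (GTF2H2B, NAIP, SERF1A and SERF1B) did not. Of the 6, GTF2H2 and SMN1 met the cut-offs for lower genes (adjusted p below 0.05 together with a log2 fold change of -1 or less), and 0 met those for higher genes. Over all tested genes 0.72% met the cut-offs for lower genes and 1.5% those for higher genes, and 5.09% had all HELLS KO libraries below all HAP1 libraries. Since GTF2H2 was chosen from this contrast, nothing is read from the count of members. The median log2 fold change of the 6 was 0.01, equal at this precision to the median of all tested genes (0.01). The count moved with the fit, which is given as a description of how it depends on the libraries and the scale and not as a test of GTF2H2. SMN1 was counted in all 16 alternative fits and GTF2H2 in 13 of 16. GTF2H2 was not counted without HELLS KO replicate 2, where its log2 fold change was -2.23, nor with a minimum of 10 counts in every library (-2.14), nor on log2(FPKM + 1) values (-0.88). GTF2H2C, SMN2, OCLN and BDP1 were counted in none of the 16. GTF2H2B was tested in 7 of the 16 and NAIP, SERF1A and SERF1B in 3, and each was counted in 0.

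The level of each gene per length is given in FPKM, the deposited values that are scaled by both gene length and library size. In HAP1 the order was SMN1 at 5.01 ± 0.455, BDP1 at 4.14 ± 2.61, GTF2H2C at 3.76 ± 0.672, SMN2 at 3.24 ± 0.593, GTF2H2 at 1.44 ± 0.322, OCLN at 0.780 ± 0.171 and GTF2H2B at 0.315 ± 0.162 FPKM (SD, n = 3 each). BDP1 overlapped SMN1, GTF2H2C and SMN2, and GTF2H2C overlapped SMN2. In HELLS KO the order was BDP1 at 4.46 ± 3.38, GTF2H2C at 3.71 ± 0.896, SMN2 at 3.34 ± 0.267, OCLN at 0.903 ± 0.234, SMN1 at 0.695 ± 0.217, GTF2H2 at 0.323 ± 0.113 and GTF2H2B at 0.0601 ± 0.0565 FPKM. SMN1 passed from the top of the order to a level that overlapped OCLN, and GTF2H2 passed from above OCLN to below it. The length in these values covers the whole gene model (8673 bases for GTF2H2 and 3096 for SMN1), shared bases included. The levels of the duplicated genes are therefore not directly comparable with those of BDP1 and OCLN. Stretches that occur once made up 18.6% in GTF2H2, 19.6% in SMN1 and 52.8% in OCLN, and neither FPKM nor CPM is scaled to them. In CPM, too, GTF2H2 and SMN1 lay above OCLN in every HAP1 library and below it in every HELLS KO library. The order against OCLN on such stretches alone was not tested.

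Along the reference chromosome, the start of SMN1 lies 143 kb from that of GTF2H2, with NAIP between them at 42.4 kb. SERF1A lies beyond SMN1, at 167 kb, and all of these are on the side towards OCLN. The copies that stayed level lie further away on that side, SMN2 at 1018 kb and GTF2H2C at 1508 kb. GTF2H2B lies between SMN1 and SMN2, at 652 kb. OCLN lies at 1575 kb on that side and BDP1 at 388 kb on the other. The order and number of these blocks in HAP1 itself were not measured here. Between SLC30A5 and MCCC2, an interval chosen after values were seen, the count table held 60 rows, of which 25 had more than 3 counts in a library and 20 were tested. GTF2H2 and SMN1 were the 2 rows that met the cut-offs, against 2.22% of all tested genes in either direction. Since the interval was drawn around GTF2H2, which was chosen from this contrast, nothing is read from this count.

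**Figure D3:**
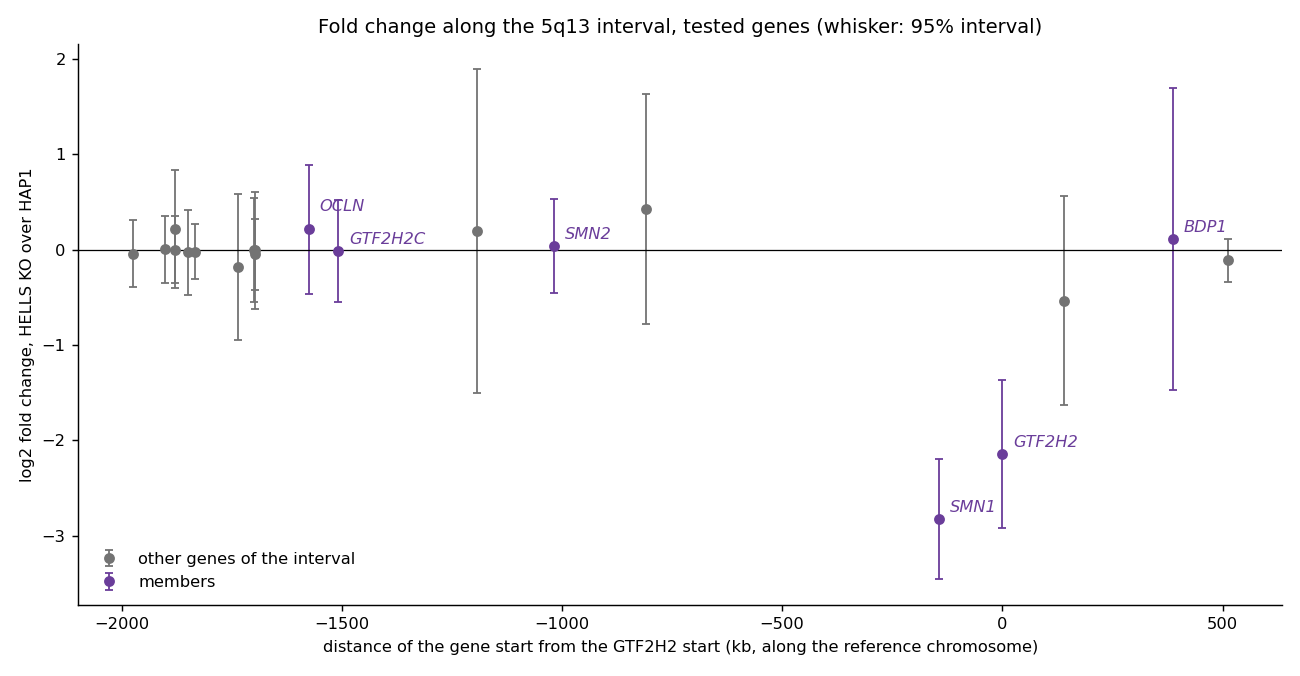
Log2 fold change of HELLS KO over HAP1 (vertical axis, whiskers for the 95% interval) of the 20 tested genes between SLC30A5 and MCCC2 against the distance of each gene's start from that of GTF2H2 (kb). SMN1 at -2.82 and GTF2H2 at -2.14 lie next to each other and apart from the rest, while GTF2H2C, SMN2, OCLN and BDP1 have intervals that include 0.

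The single-copy genes on both sides gave values close to 0. Of 21 genes listed, 18 were tested and 0 met the cut-offs with edgeR, DESeq2 or limma, against 2.22% of all tested genes with edgeR. An unadjusted p under 0.05 with edgeR was found for 0 of the 18, against 6.59% of all tested genes. In so short a list counts of 0 lie near both shares. Their median log2 fold change was -0.02 and the range was -0.26 to 0.13. RAD17, a checkpoint clamp loader next to MARVELD2, was at 40.4, 38.0 and 57.9 CPM in HAP1 and 35.6, 44.4 and 56.4 CPM in HELLS KO (0.00, SE 0.23). MCCC2, a subunit of a carboxylase that breaks down leucine, was at 131, 132 and 136 CPM in HAP1 and 120, 123 and 126 CPM in HELLS KO. Its HELLS KO libraries all lay below its HAP1 libraries, as for 2 of the 18 genes against 5.09% of all tested genes, at a log2 fold change of -0.11 (SE 0.10). MARVELD2, which encodes tricellulin, had 2 counts in replicate 3 of each genotype and 0 elsewhere.

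The other subunits of TFIIH gave values close to 0. Of 9 listed, 8 were tested and 0 met the cut-offs with edgeR, DESeq2 or limma, against 2.22% of all tested genes with edgeR. An unadjusted p under 0.05 with edgeR was found for 0 of the 8, against 6.59% of all tested genes, and in so short a list counts of 0 lie near both shares. Their median log2 fold change was -0.02. The XPB helicase ERCC3 was at 138 ± 8.34 CPM in HAP1 and 140 ± 3.69 CPM in HELLS KO (SD, n = 3; log2 fold change 0.03). The XPD helicase ERCC2, whose protein p44 binds, was at 126 ± 12.9 and 112 ± 6.08 CPM (-0.16, SE 0.12), the lowest value of the list. Among the further core subunits, GTF2H1 was at 105 ± 17.0 and 104 ± 13.6 CPM (-0.02) and GTF2H3 at 112 ± 12.6 and 105 ± 8.53 CPM (-0.10). GTF2H5, the smallest subunit, was at 30.2 ± 1.80 and 32.3 ± 4.60 CPM (0.10). GTF2H4 had 9 counts or fewer in every library and was not tested. Of the kinase module, CDK7 was at 51.1 ± 2.92 and 50.4 ± 2.72 CPM (-0.02), its cyclin CCNH at 59.2 ± 4.41 and 58.3 ± 4.20 CPM (-0.02) and the assembly factor MNAT1 at 39.8 ± 4.74 and 40.0 ± 2.14 CPM (0.01).

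The partners of the SMN protein, the Gemins, DDX20 and STRAP, gave values close to 0 as well. All 8 were tested, 0 met the cut-offs with edgeR, DESeq2 or limma, 0 had an unadjusted p under 0.05 with edgeR, and the log2 fold changes ran from -0.07 to 0.07. For BDP1, 13 genes of TFIIIB and RNA polymerase III were tested, 0 met the cut-offs with these tools, 0 had an unadjusted p under 0.05, and the range was -0.11 to 0.18. Both counts of 0 stand beside 2.22% of all tested genes that met the cut-offs with edgeR and 6.59% with such a p, and lie near these shares.

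Of 9 relatives and partners of NAIP, the BIR-domain proteins and the NLRC4 inflammasome, 7 were tested and 0 met the cut-offs in any fit without the replicate block (edgeR, DESeq2 and limma). This count of 0 stands beside 2.22% of all tested genes with edgeR and lies near that share. The median was 0.09, and an unadjusted p under 0.05 was found for 1 of the 7, beside 6.59% of all tested genes. This was PYCARD, the inflammasome adaptor, named after its values were seen. It was at 11.8, 12.5 and 6.03 CPM in HAP1 and 7.54, 3.35 and 2.83 CPM in HELLS KO (-1.15, SE 0.45), and once replicate number entered as a block it met the cut-offs (-1.18, SE 0.25, edgeR adjusted p = 0.039). CASP1 and BIRC7 were not tested.

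Of 13 tight junction genes listed beside OCLN, 11 were tested and 0 met the cut-offs when all 6 libraries were fitted with no block or batch term (edgeR, DESeq2 and limma). That count of 0 lies near the 2.22% of all tested genes with edgeR. An unadjusted p under 0.05 with edgeR was found for 2 of the 11, beside 6.59% of all tested genes. These were CLDN1, a claudin of the sealing strands (-0.92, SE 0.25, HELLS KO libraries all below HAP1), and MARVELD3, a relative of occludin (-0.56, SE 0.24), both named after their values were seen. The median was -0.23 and the range -1.49 to 0.09. The scaffold gene TJP3, whose unadjusted p was 0.058 and which is named because it met the cut-offs in other fits, was at 19.0, 21.5 and 3.91 CPM in HAP1 and 6.72, 6.85 and 2.33 CPM in HELLS KO. Its fitted log2 fold change was -1.49 (SE 0.66), and with the replicate block it was -1.34 (SE 0.21, edgeR adjusted p = 0.0084). With a term for the batch it was -1.35 (edgeR adjusted p = 0.0061), and with replicates 1 and 2 only -1.60 (edgeR adjusted p = 0.0090).

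**Figure D4:**
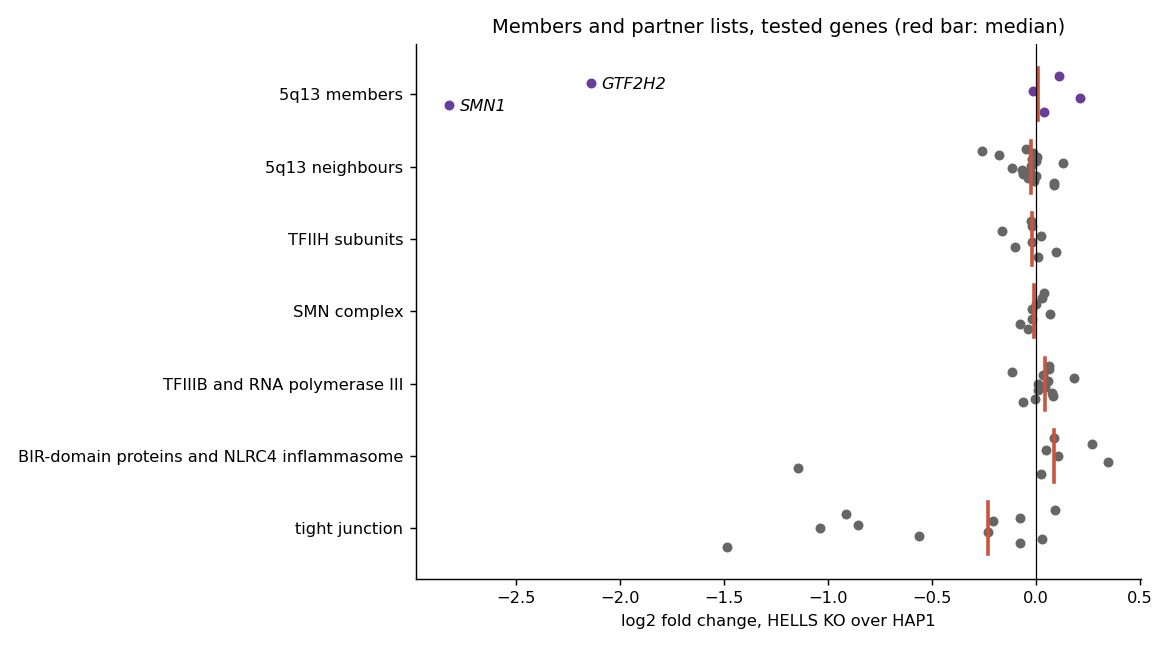
Log2 fold change of HELLS KO over HAP1 (horizontal axis) of every tested gene among the 10 genes at 5q13 and in each partner list, 1 dot per gene with the list's median as a red bar. GTF2H2 and SMN1 lie to the left of all genes in the lists, whose lowest value is -1.49.

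The pattern over the 6 libraries was compared with that of GTF2H2 by Pearson correlation of log2(CPM + 1), a description over 6 points that share the libraries, their depth and the genotype. SMN1 had r = 0.978, GTF2H2C 0.343 and BDP1 0.320, while SMN2 (-0.05) and OCLN (-0.04) were near 0. The 5 genes most alike outside the list, among tested genes with a mean of at least 1 CPM, were CLCN4, a chloride-proton exchanger (r = 0.996), CCDC69 (0.996), DAZL, a germline RNA-binding protein (0.994), TAOK3, a kinase (0.994) and BICDL1 (0.994). CLCN4 went from 22.5 ± 4.51 to 6.57 ± 1.39 CPM (log2 fold change -1.77, SE 0.24) and DAZL from 41.6 ± 3.72 to 17.6 ± 2.80 CPM (-1.24, SE 0.17), with n = 3 each. The other three were lower by less, CCDC69 at -0.34, TAOK3 at -0.37 and BICDL1 at -0.48. Since these genes were picked for a pattern that follows the genotypes, their differences are descriptions with no test. CCDC69 is also on chromosome 5, and the remaining 4 are on chromosomes X, 3 and 12.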

How the data were processed

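The authors sequenced total RNA of 3 HAP1 and 3 HELLS KO samples, which the study calls biological replicates without naming separate cultures, so p-values measure the spread between these libraries. Stranded libraries were read as pairs of 100 bases, aligned to GRCh38 with STAR 2.7.3a, and stripped of duplicates and of reads with a mapping quality under 20. The authors deposited raw counts per gene from featureCounts 2.0.6 and a table of FPKM values for 24956 genes. The FPKM table held exactly the genes with more than 10 counts in all, and 100% of its nonzero FPKM values were recomputed within 0.1% from the deposited counts and DESeq2 size factors. The labels list DESeq2 1.44.0. The annotation version and strand setting are not given in the sources used here. Of the 60483 rows, 56321 matched GENCODE release 44 by ID without version.

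Counts were fitted with edgeR 4.0.16 under R 4.3.3 (low counts filtered by filterByExpr, TMM factors of 0.963 to 1.03, quasi-likelihood test, Benjamini-Hochberg adjustment over 17925 genes). A gene passed at an adjusted p below 0.05 with a log2 fold change of 1 or more in size, as in the study. The fits were tested on simulated data first. The members and gene lists were chosen with earlier results of these data known. Named by rule were all members, each listed gene that passed, the TFIIH subunits, MARVELD2, RAD17, MCCC2 and CDK7, the 5 genes most like GTF2H2, and HELLS. Other genes, among them PYCARD, CLDN1, MARVELD3, TJP3, CD33 and KRT18, were named outside this rule with their values seen. A further haematopoietic marker is not reported here. Copies were summed before the same fit. GTF2H2C_2 had no row in the count table. Alternatives were DESeq2 1.42.0, limma 3.58.1 on log2(FPKM + 1) and log2(FPKM + 0.1), upper-quartile scaling, other filters, a block for the replicate number, the batch labelled for replicate 3 as a term, replicates 1 and 2 alone, and each library left out. Deviations from the genotype mean of same-numbered libraries correlated at 0.504, 0.241 and 0.830, all above 0.1, and the numbers were taken to pair the libraries by that rule. Replicates 1 and 2 were not told apart by it, since HAP1 replicate 2 with HELLS KO replicate 1 reached 0.703 and HAP1 replicate 1 with HELLS KO replicate 2 reached 0.396. Of the genes that passed without the block, 269 of 269 higher and 128 of 129 lower also passed with it. Exonic stretches that occur once were counted on the main chromosomes of GRCh38, leaving out alternate sequences, since BDP1 had counts although all its stretches recur there.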

Additional observations from a re-analysis of the deposited data

How the results depend on the processing

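All 16 alternatives kept GTF2H2 and SMN1 lower in HELLS KO. The log2 fold change of GTF2H2 was -0.88 on log2(FPKM + 1) values, a scale that shrinks the change of low genes, and -2.37 to -1.89 as single libraries were dropped. That of SMN1 was -1.83 on the same scale and -3.13 to -2.68 as single libraries were dropped, the lowest without HELLS KO replicate 3. The number of 5q13 members that met the cut-offs was 1 in place of 2 on log2(FPKM + 1) values and with a minimum of 10 counts per library, and 1 to 2 as single libraries were dropped, with HELLS KO replicate 2 the library that mattered. With the replicate block the GTF2H2 log2 fold change was -2.17, and with a term for the batch -2.15. The sum of the GTF2H2 copies ranged from -0.67 to -0.28 and that of the SMN copies from -1.13 to -0.95 over the 14 alternatives that use counts. No value was obtained for the SERF1A and SERF1B sum, which is under the filter.

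Genes higher in HELLS KO numbered 269, and 424 with DESeq2, 415 with no filter, 29 with a minimum of 10 counts per library and 164 on log2(FPKM + 1) values. Genes lower numbered 129, and 243, 200, 48 and 66 under the same settings, 267 with the replicate block, 285 with the batch term, 219 with replicates 1 and 2 only and 258 with DESeq2 and the replicate block, which was added after seeing the data. Dropping each library singly gave 112 to 273 higher and 40 to 176 lower genes. The higher count fell by more than 1.5 times to 173 without HAP1 replicate 1, 160 without HELLS KO replicate 1 and 112 without HELLS KO replicate 2, and the lower count to 69, 62 and 40 without these and to 84 without HAP1 replicate 2. Of the NAIP relatives 1 passed under both fits with the replicate block, and of the tight junction genes 1 passed under both of these, with the batch term and with replicates 1 and 2 only. The block changed no other call named in the text. The cause of these differences was not tested. Genes at or under 3 counts, here NAIP, SERF1A and SERF1B, cannot show a difference in these counts.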
